A study of Drosophila melanogaster with 3 samples.

Results

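Of the 30000 rows in the pooled peak list for the homeodomain protein OdsH, 493 (1.64%) had their summit in pericentric heterochromatin or on chromosome 4, and 60 of these rows were in the set that passed the irreproducible discovery rate (IDR) procedure. Members were chosen by position alone. They were rows on genome build dm6 with a summit beyond 22 Mb on 2L, beyond 22.95 Mb on 3L, before 4.2 Mb on 3R, beyond 22.6 Mb on X, or anywhere on chromosome 4. Membership used no signal value. The comparison was with the 24856 rows on the remaining sequence of 2L, 3L, 3R and X, called the euchromatic rest here. The 4651 rows on 2R belong to neither class and were not used here.

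The data are chromatin immunoprecipitation with sequencing (ChIP-seq) of whole *Drosophila melanogaster* at the white prepupa stage, with the sexes mixed. All animals carried a transgene for OdsH fused to eGFP, a line labelled OdsH-GFP, and chromatin was precipitated with an antibody to GFP. The labels give 1 group of 3 biological replicates and no second genotype, stage or untreated group, so each comparison is between parts of the genome within a replicate. Signal from a whole animal is a mixture of all its cell types, and the fusion protein stands in for the native one.

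Pericentric heterochromatin is the compact chromatin beside the centromeres, rich in transposable elements and satellite repeats, poor in genes and marked by heterochromatin protein 1. Chromosome 4, the small dot chromosome, is largely packaged in a similar way but carries many genes that are transcribed. Some genes, such as *light*, have long been known to work from within pericentric heterochromatin. OdsH (Odysseus) is a paired-class homeodomain protein known from male sterility in hybrids of *Drosophila* species, and homeodomains of this class recognise short AT-rich words built around TAAT.

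Sequences at summits are shown first, because the strongest regions of the blocks differ in base composition and in whether they hold a homeodomain word. Each is the plus strand of 50 bp to either side of the summit plus the summit base, from the RefSeq copy of the release 6 genome (dm6). Capitals mark TAATTA. The first lies just past the 3′ end of *sv* on chromosome 4 (chr4:1113283-1113383). The next 2 are the regions of chromosome 4 that follow it in signal value, added after their values were seen. They are an intergenic region whose nearest gene is *lgs* (chr4:424768-424868) and a start site of *gw* (chr4:660049-660149). The others are the strongest IDR regions of X, in an intron shared by *CG42346* and *fog* (chrX:22833694-22833794), of 3L, at the start of *RpL15* (chr3L:27267188-27267288), and of 2L, at the start of *Nubpl* (chr2L:22239800-22239900).
Chromosome 4, sv and Cals: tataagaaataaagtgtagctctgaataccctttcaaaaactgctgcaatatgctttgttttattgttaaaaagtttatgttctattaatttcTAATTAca
Chromosome 4, intergenic near lgs: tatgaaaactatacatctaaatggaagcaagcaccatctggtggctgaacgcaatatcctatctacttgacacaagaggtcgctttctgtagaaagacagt
Chromosome 4, gw: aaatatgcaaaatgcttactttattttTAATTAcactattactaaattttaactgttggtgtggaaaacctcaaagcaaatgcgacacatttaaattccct
X, CG42346 and fog: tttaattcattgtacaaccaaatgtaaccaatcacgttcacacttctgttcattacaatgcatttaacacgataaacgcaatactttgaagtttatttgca
3L, RpL15: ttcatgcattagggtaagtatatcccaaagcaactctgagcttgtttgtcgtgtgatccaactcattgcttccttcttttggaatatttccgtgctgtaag
2L, Nubpl: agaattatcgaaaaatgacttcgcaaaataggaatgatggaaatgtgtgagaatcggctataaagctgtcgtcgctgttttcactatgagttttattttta
The window near *sv* was 24.8% G or C and that at *gw* 27.7%, and each held 1 TAATTA. The intergenic window of chromosome 4 was 40.6% G or C and held none. The windows on X, at *RpL15* and at *Nubpl* were 30.7%, 40.6% and 33.7% G or C and also held none.

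Few OdsH summits lay in the blocks, and the pericentric blocks and chromosome 4 differed widely. In the pooled list the blocks had 37.9 rows per Mb of assembled sequence, against 261 per Mb in the euchromatic rest. Chromosome 4 alone had 201.3 rows per Mb (268 rows). Its IDR rows numbered 28.5 per Mb, against 75.9 per Mb in the rest. Among the pericentric blocks, X had 55.3 per Mb (52 rows) and 2L had 50.9 per Mb (77 rows). The blocks of 3L and 3R were the sparsest, with 13.1 per Mb (66 rows) and 7.19 per Mb (30 rows). No row of any of the dm6 lists lay on Y or on an unplaced scaffold. Whether such sequence was kept when the lists were made is not known here, so the count of 0 sets no limit on binding there.

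The replicates showed the same low density but divided it differently. Replicates 1, 2 and 3 had 40.7, 38.3 and 49.1 rows per Mb in the blocks, against 256, 259 and 258 in the euchromatic rest. The density in the blocks was 0.166 ± 0.0222 times that in the rest (SD, n = 3), lower in 3 of 3 replicates, with p = 0.25 in a two-sided exact permutation test. Per protein-coding gene in place of per Mb the direction reversed, to 1.28 ± 0.171 times (higher in 3 of 3, exact p = 0.25). For the 8700 strongest rows of each list the density per Mb was 0.0572 ± 0.0226 times that in the rest (lower in 3 of 3, exact p = 0.25). A p of 0.25 is the smallest that 3 replicates can give, so no comparison over replicates here can reach 0.05.

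Replicate 3 stood apart from the others. On chromosome 4 replicates 1 and 2 had 335 and 318 rows and replicate 3 had 180. In the pericentric blocks replicates 1 and 2 had 195 and 180 rows and replicate 3 had 459. Chromosome 4 had 0.810 ± 0.249 times the density of the rest over all 3 replicates (SD, n = 3; exact p = 0.25) and 0.953 times without replicate 3. For the strongest rows the same ratio was 0.341 ± 0.0743 (lower in 3 of 3, exact p = 0.25). The pericentric blocks had 0.0924 ± 0.0522 times the density of the rest (exact p = 0.25) and 0.0624 times without replicate 3. The difference between chromosome 4 and the pericentric blocks, 185 ± 77.2 rows per Mb (SD, n = 3), had the same sign in 3 of 3 replicates (exact p = 0.25).

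**Figure D1:**
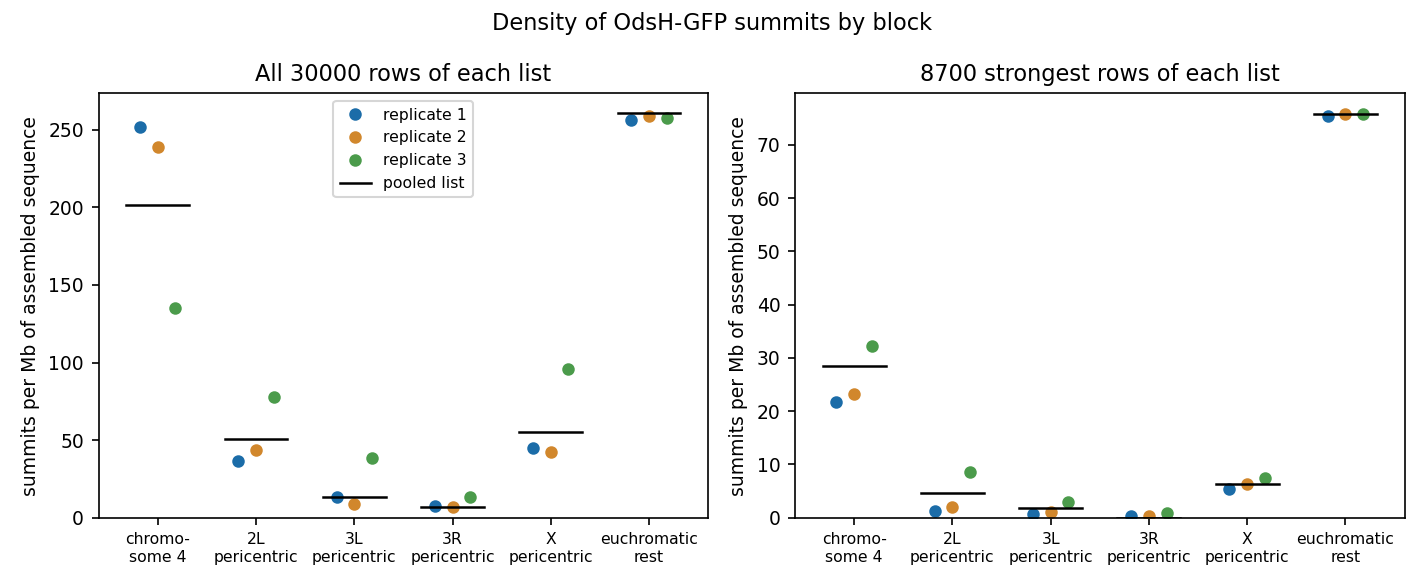
Summits per Mb of assembled sequence (y axis) in chromosome 4, the 4 pericentric blocks and the euchromatic rest (x axis), for all rows (left) and the 8700 strongest rows of each list (right). Points are replicates and bars the pooled list, where the strongest rows are the IDR set. Replicate 3 is below the other replicates on chromosome 4 for all rows (135 against 252 and 239 per Mb) and above them in every pericentric block.

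Summit density summed over the arms was graded across the limits of the pericentric blocks. Summed over the 4 arms and counted from the pericentric side outwards in bins of 0.5 Mb, density was 8.99, 10.7, 15.5 and 70.1 rows per Mb inside the limits. It was 138, 189, 217 and 238 rows per Mb in the successive bins outside them. IDR rows numbered 6.01 per Mb in the first bin inside, and 1.33 per Mb or fewer in each bin farther in, against 25.8 per Mb in the first bin outside and 70.5 per Mb in the farthest. The innermost sums cover fewer arms. X had no assembled sequence beyond 1 Mb inside its limit, and 2L had 0.0137 Mb beyond 1.5 Mb. Single arms were less even. Outwards from the limit, 2L had 192, 206, 298 and 228 rows per Mb and 3L had 156, 178, 248 and 316. There 3R had 138, 364, 182 and 234 and X had 57.4, 6.00, 140 and 174. Inside, 3L had 2 rows per Mb from 1 to 1.5 Mb and 18 from 1.5 to 2 Mb. X was also an exception at its limit, since its density just inside was above that just outside. The rows next to a limit were unremarkable on 2L, 3L and X, with signal values from 21.3 to 51.0 inside and from 21.3 to 29.1 outside. On 3R the row just inside had a signal value of 72.6 and the row just outside 499, and the row outside was in the IDR set.

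**Figure D2:**
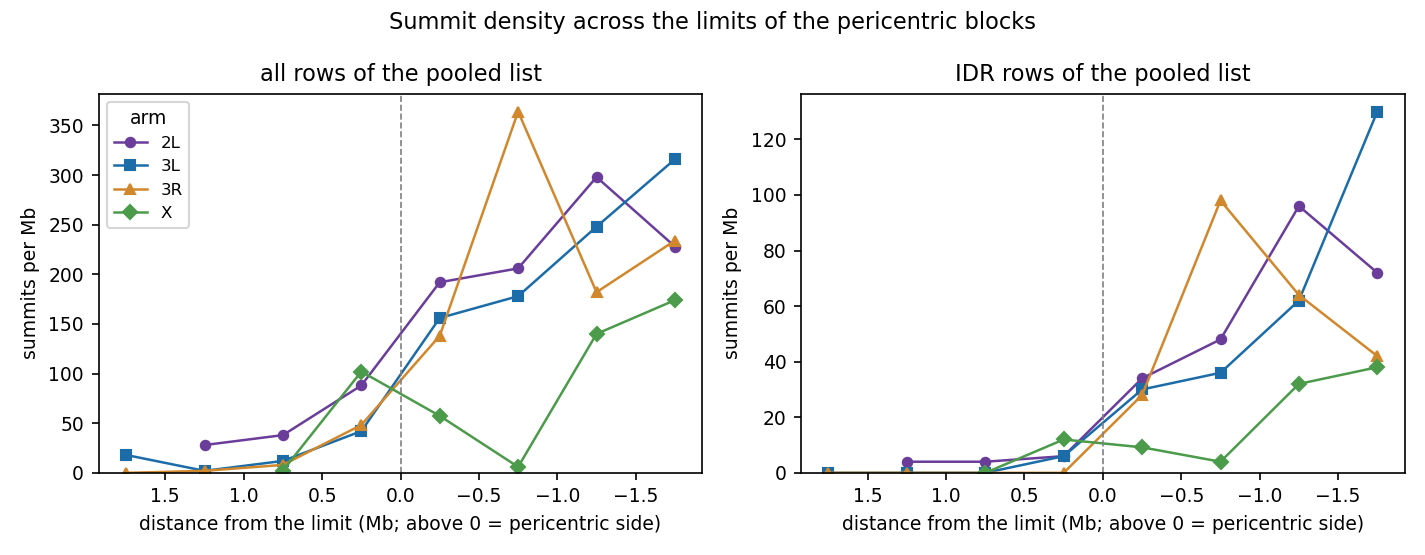
Summits per Mb (y axis) in 0.5 Mb bins against the distance from the limit of each pericentric block (x axis, Mb, with the pericentric side above 0 and to the left), for all rows and for IDR rows of the pooled list. Lines are the 4 arms, and on 2L, 3L and 3R density is lower on the pericentric side.

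Regions of the blocks were also weaker. The signal value, which the authors' peak caller gave to each row and which compares rows within 1 list only, had a median of 29.98 in the blocks, against 41.0 in the euchromatic rest. The strongest row of the blocks had a value of 640, against 3230 in the rest. Of the members, 12.2% were in the IDR set (60 of 493, exact 95% interval 9.42 to 15.4), against 29.1% in the rest and 29.0% of the whole list. By block, 38 of 268 rows on chromosome 4 were in the IDR set, 9 of 66 on 3L, 7 of 77 on 2L and 6 of 52 on X. None of the 30 rows on 3R was, which allows a share of up to 10%.

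The same held within each replicate. The share of rows among a list's own 8700 strongest was 7.74%, 9.24% and 12.8% in the blocks for replicates 1, 2 and 3, against 29.4%, 29.3% and 29.4% in the rest. The difference was -19.4 ± 2.59 percentage points (SD, n = 3; exact p = 0.25, lower in 3 of 3). Median signal in the blocks was 0.729 ± 0.0250 times that in the rest (exact p = 0.25, lower in 3 of 3). On chromosome 4 the share among the strongest rows was 8.66% and 9.75% in replicates 1 and 2 and 23.9% in replicate 3.

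**Figure D3:**
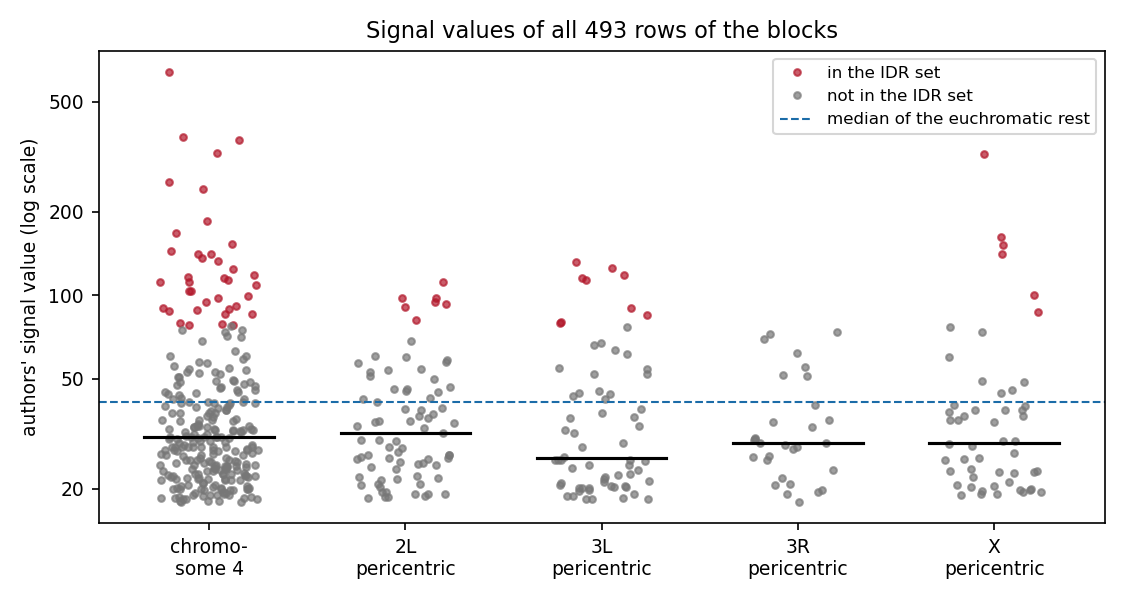
Authors' signal value (y axis, log scale) of all 493 members by block (x axis). Red points are in the IDR set, black bars are the median of each block and the dashed line is the median of the euchromatic rest, 41.0. Every block's median is below that line, and 3R has no red point.

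Over all blocks, replicates supported members less often than other rows. All 3 full replicate lists overlapped 177 of the 493 members (35.9%, exact 95% interval 31.7 to 40.3), against 54.2% in the euchromatic rest and 53.8% of the whole list. Replicate 1 overlapped 63.5% of members, replicate 2 overlapped 70.6% and replicate 3 overlapped 64.9%, against 75.1%, 81.1% and 74.1% in the rest. The difference was -10.5 ± 1.25 percentage points (SD, n = 3; exact p = 0.25, lower in 3 of 3). In the pericentric blocks alone it was -18.7, -15.3 and 1.92 points in replicates 1, 2 and 3 (mean -10.7, exact p = 0.5), so replicate 3 overlapped these rows more often than the rest, and it was -17.0 points without replicate 3. On chromosome 4 it was -10.2 points, and -6.12 without replicate 3. No replicate list overlapped 29 of the members. The 3 lists were called against the same control alignment, so features of that control are shared between them.

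Support for the IDR members depended on how much of each replicate list was used. All 3 full lists overlapped 55 of the 60. The pooled list and the IDR set come from these same 3 replicates, so such overlap is not independent support. With a doubled number of the strongest rows of each replicate, 95% of the 60 were overlapped on average, against 98.2% in the rest (-3.15 ± 3.74 points, SD, n = 3; exact p = 0.5, lower in 2 of 3). All 3 sets of 8700 strongest rows overlapped 27 of the 60 IDR members (45.0%, interval 32.1 to 58.4), against 71.3% in the rest and 71.0% of the whole IDR set. Replicate 3 overlapped 91.7% of the 60, replicate 2 overlapped 68.3% and replicate 1 overlapped 55.0%, against 87.0%, 89.6% and 84.9% in the rest. Replicate 3 was therefore 4.69 points above the rest and replicates 1 and 2 were 29.9 and 21.3 points below it. The IDR members were also weaker, with a median pooled signal value of 111.3, against 152.1 for IDR rows of the rest. Support was not compared between rows of similar signal value, so the part of signal strength in these differences was not tested. The rank order of the signal value at IDR members had Spearman's rho of 0.708 between replicates 1 and 2 (58 regions), 0.469 between 1 and 3 (55 regions) and 0.333 between 2 and 3 (56 regions). In the same order, chromosome 4 alone had 0.654, 0.55 and 0.444 (36, 33 and 34 regions). The pericentric blocks alone had 0.829, 0.348 and 0.302 (22 regions each), so replicates 1 and 2 were near the rest there. In the rest the 3 values were 0.843, 0.818 and 0.830 (7163, 7016 and 7001 regions). Regions are not replicates, so no p is attached.

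Most of the IDR summits in the blocks lay at gene starts. Of the 60 IDR members, 39 (65.0%, interval 51.6 to 76.9) were within 500 bp of a transcription start site (TSS) of a protein-coding gene, against 26.5% of IDR rows in the euchromatic rest. Sequence within 500 bp of a TSS made up 1.92% of the assembled bases of the blocks, against 12.5% in the rest. All 7 IDR members on 2L, 7 of 9 on 3L, 2 of 6 on X and 23 of 38 on chromosome 4 were at a TSS. These counts and intervals are of rows, and overlapping rows merge the 60 into 57 regions. The 2 rows at a TSS on X overlap each other at *CG17167*. The 2 rows of 3L away from a TSS overlap each other in *l(3)80Fg*. The median distance to the nearest TSS was 182 bp for IDR members, against 2247 bp for IDR rows of the rest. Of the 39, 35 were upstream of the nearest TSS (89.7%, interval 75.8 to 97.1), against 83.7% in the rest.

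Over all rows the contrast was smaller. A TSS lay within 500 bp of 33.3% of members, against 17.7% of rows in the rest. In replicates 1, 2 and 3 the share was 27.4%, 35.5% and 20.03% in the blocks, against 21.7%, 21.2% and 16.5% in the rest. The difference was 7.83 ± 5.74 percentage points (SD, n = 3; exact p = 0.25, higher in 3 of 3), and 4.57 points without replicate 2. For the 8700 strongest rows of each replicate it was 29.96 ± 7.04 points (exact p = 0.25, higher in 3 of 3). Divided by the share of bases near a TSS, the share of these strongest summits was 30.8 ± 3.33 in the blocks, against 2.34 ± 0.140 in the rest. The same quotient was 6.78 ± 0.682 on chromosome 4 and 49.3 ± 13.1 in the pericentric blocks. The highest value the quotient can take rises as the share of bases near a TSS falls. That share was 8.66% on chromosome 4, 1.16% in the pericentric blocks and 12.5% in the rest. These quotients are therefore not on a common scale, and the value for all blocks mixes areas with unlike shares.

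Few summits sat between a pair of divergent start sites. Only 2 of the 39 IDR members at a TSS (5.13%, interval 0.627 to 17.3), both on chromosome 4, had a TSS of each strand within 500 bp pointing away from the summit. In the rest 26.2% of such IDR rows did (interval 24.3 to 28.3). The share of all start sites with a divergent neighbour was not counted, so these values have no base rate. Gene layout differed, with 113 protein-coding genes in 11.7 Mb of the pericentric blocks and 80 in 1.33 Mb of chromosome 4. The rest had 10900 in 95.4 Mb. The part of gene layout in this contrast was not tested.

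**Figure D4:**
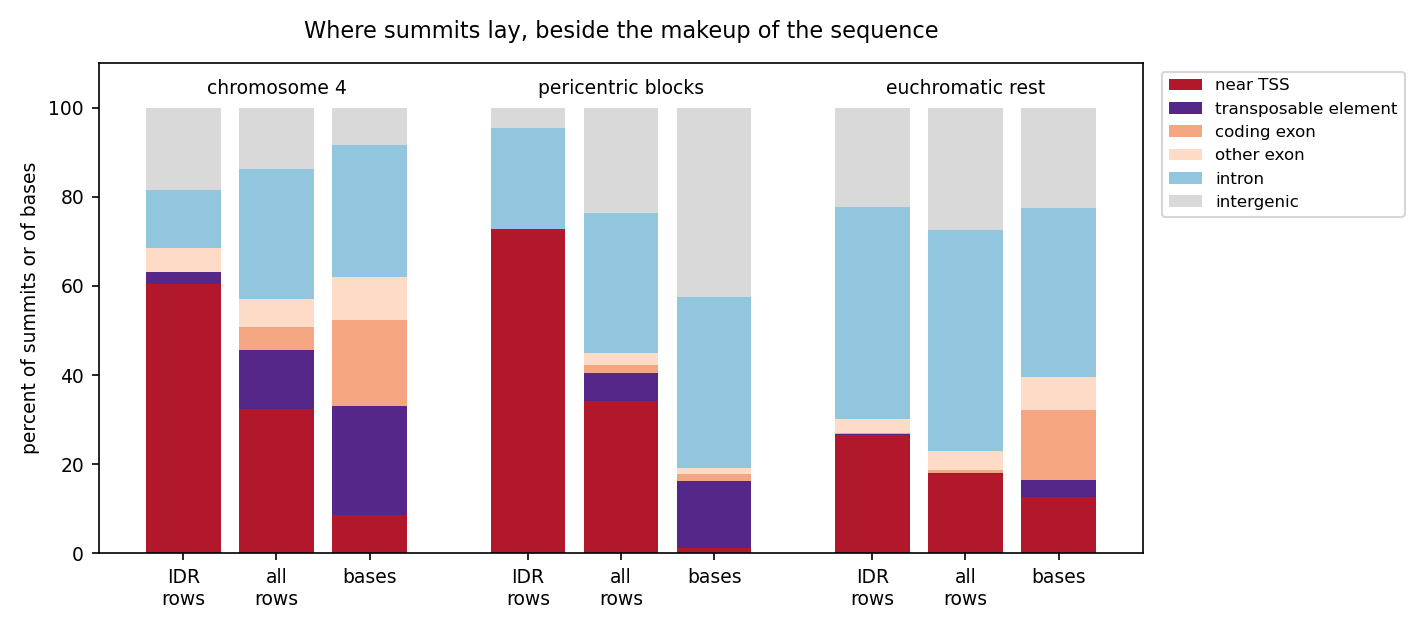
Percent (y axis) of IDR rows, all rows and assembled bases by location, for chromosome 4, the pericentric blocks and the euchromatic rest. Each summit or base is counted once, in the order of the legend. The near-TSS class holds 60.5%, 72.7% and 26.5% of IDR rows in the 3 areas, against 8.66%, 1.16% and 12.5% of their bases.

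Annotated transposable elements as a whole held a smaller share of summits than of bases, and nearly no strong ones. Annotated elements covered 16.1% of the bases of the blocks and held 54 of the 493 member summits, against 4.07% of bases and 106 of 24856 summits in the euchromatic rest. In replicates 1, 2 and 3 elements held 12.1%, 12.5% and 8.92% of summits in the blocks, against 0.466%, 0.3203% and 0.403% in the rest. The difference was 10.8 ± 1.95 percentage points (SD, n = 3; exact p = 0.25, higher in 3 of 3). Divided by the share of bases in elements, the share of summits was 0.692 ± 0.120 in the blocks, against 0.0974 ± 0.0180 in the rest. The same quotient was 0.550 ± 0.0812 on chromosome 4 and 0.513 ± 0.0683 in the pericentric blocks. The joint value is above both because it mixes areas with unlike shares of element bases (25.1% and 15.1%) and unlike numbers of summits. For the strongest rows of each replicate the quotient was 0.0955 ± 0.0831 in all blocks and 0.0670 ± 0.00380 in the rest (SD, n = 3; exact p = 0.5).

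Of the element families, INE-1, an old nonautonomous family abundant on chromosome 4, held 31 member summits, 23 of them on chromosome 4. In the pooled list INE-1 held 8.58% of the summits and covered 7.31% of the bases of chromosome 4, which are similar shares. In the pericentric blocks it held 8 of 225 summits (3.56%) and covered 0.899% of the bases. That joint share of bases mixes arms with unlike shares and unlike numbers of summits. On 2L INE-1 held 2 of 77 summits (2.60%) and covered 1.49% of bases. It held 3 of 66 on 3L (4.55%, against 1.08% of bases) and 2 of 30 on 3R (6.67%, against 0.113%). X had 1 of 52 (1.923%), below its share of bases (2.455%). In the euchromatic rest INE-1 held 0.221% of summits and covered 0.227% of bases. The family 1360 held 6 member summits and no other family more than 3. A single IDR member lay in an annotated element, an INE-1 copy 1796 bp upstream of *fuss* on chromosome 4. None of the 22 pericentric IDR summits did, which allows a share of up to 13.6%. Lower-case (masked) sequence made up 39.5% of the bases of the blocks, against 17.5% in the rest. Per Mb outside masked sequence, the density in the blocks was 0.226 ± 0.0302 times that in the rest (SD, n = 3; exact p = 0.25). How reads with several placements were handled is not recorded in the labels or files used here, and its part in these values was not tested.

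The dip in GC content that marks summits in the euchromatic rest was shallow or missing in the blocks. IDR summits on chromosome 4 had a mean GC content of 33.7% over the 50 bp to either side, against 33.4% at windows 500 bp away. Those of the pericentric blocks had 32.9% at the summit and 35.6% at 500 bp. Those of the rest had 31.7% at the summit and 43.5% at 500 bp. The summit window was poorer in GC than its surroundings at 18 of 38 IDR summits on chromosome 4 (47.4%), at 16 of 22 in the pericentric blocks (72.7%) and at 85.5% of those in the rest.

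Each replicate showed this. Among its 8700 strongest rows, GC at the summit minus GC 500 bp away was 1.02, 0.399 and -1.24 percentage points on chromosome 4 in replicates 1, 2 and 3. In the pericentric blocks it was -4.46, -5.35 and -4.72 points, and in the rest -11.1, -11.3 and -11.6 points. Over all blocks the difference from the rest was 9.68 ± 0.938 points (SD, n = 3; exact p = 0.25, smaller dip in 3 of 3). The surrounding sequence differs too, since windows tiled over chromosome 4 averaged 35.3% GC, against 39.9% for the pericentric blocks and 42.4% for the rest. The level of GC at the summits themselves was nearer to the rest. It was 34.0% at all member summits and 33.4% at IDR members, against 35.1% and 31.7% in the rest.

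**Figure D5:**
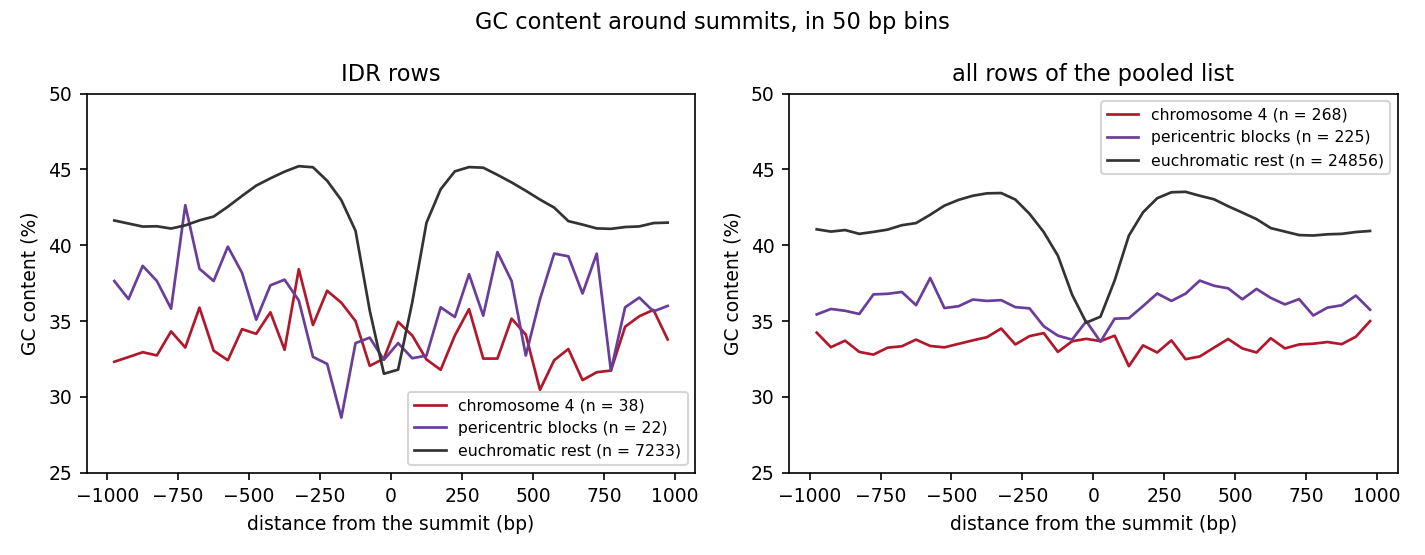
GC content (y axis, %, from 25) in 50 bp bins against distance from the summit (x axis, bp) for chromosome 4, the pericentric blocks and the euchromatic rest, for IDR rows (left) and all rows (right). The line of the rest dips at the summit, and the line of chromosome 4 is level within its own scatter over 38 and 268 regions.

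The share of summit windows with TAATTA did not differ from the rest in a constant direction over the replicates. In the pooled list TAATTA was in 54 of 493 member windows (10.9%, interval 8.34 to 14.1), against 9.40% of windows in the rest. All windows of that length tiled over the same sequence held it in 6.16% in the blocks and 6.60% in the rest. Among IDR rows it was in 6 of 60 members (10%, interval 3.76 to 20.5), against 10.9% in the rest. In replicates 1, 2 and 3 the share was 7.17%, 8.03% and 9.23% in the blocks, against 8.82%, 8.85% and 8.83% in the rest, so the sign of the difference varied (-0.69 ± 1.03 points, SD, n = 3; exact p = 0.5). TAATTG was in 11.97% of member windows, against 10.8% in the rest.

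Other words were rare. The paired-class dimer word TAATNNNATTA was in 7 member windows (1.42%), against 1.24% in the rest, and in none of the 60 IDR members, which allows up to 5.0%. The DRE word TATCGATA, bound by the promoter factor DREF, was in 9 member windows (1.83%, interval 0.838 to 3.44), against 0.491% in the rest. It was in 0.441% of tiled windows of the blocks, against 0.249% of those of the rest. Repeats of the AATAT and AAGAG satellite units, searched as the unit written in tandem, were in 3 and 0 member windows. Words were searched on both strands, TAATTA and TAATTG can lie within a dimer word, and a match is a description of the letters only.

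The share of genes marked by an IDR summit was near the background in the pooled list. Of 193 protein-coding genes with a TSS in the blocks, 44 had an IDR summit within 1000 bp of a TSS (22.8%, interval 17.1 to 29.4), against 23.9% of 10900 genes in the rest. The share was 26 of 80 on chromosome 4 (32.5%) and 18 of 113 in the pericentric blocks (15.9%). None of the 14 genes of the 3R block was marked, which allows up to 21.4%. With any row of the pooled list counted, 136 of the 193 genes had one (70.5%), against 39.3% in the rest.

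The replicates were split on this count. With their 8700 strongest rows, replicates 1, 2 and 3 marked 15.0%, 13.5% and 30.1% of the genes of the blocks, against 27.4%, 26.3% and 25.5% in the rest. The difference was -6.87 ± 9.90 percentage points (SD, n = 3; exact p = 0.5), below the rest in replicates 1 and 2 and above it in replicate 3, and it was -12.6 points without replicate 3. In the pericentric blocks the same shares were 6.19%, 7.96% and 27.4%.

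The strongest regions were on chromosome 4. The top member had its summit at position 1113333, where the signal value was 640 and the rank 425 in the pooled list. It lay 16 bp beyond the 3′ end of *sv* (shaven, a Pax family transcription factor), in a noncoding part of an exon of *Cals* (calsyntenin). It ranked 387, 423 and 585 in replicates 1, 2 and 3, so all of them placed it among their 600 strongest rows. The next, with 374, was intergenic at position 424818, and the nearest TSS was that of *lgs* (legless, a cofactor of Wnt signalling) at 19093 bp. It ranked 1333, 1708 and 901 in the 3 replicates.

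Several of the next regions on chromosome 4 lay at or near start sites. The region at *gw* (gawky, a factor of silencing by microRNAs) had a signal value of 363 and lay 116 bp upstream of a TSS, with ranks of 1800, 1233 and 1104 in replicates 1, 2 and 3. At *Sox102F*, a Sox family transcription factor, the value was 327 and the summit 267 bp upstream. *PlexA*, a receptor for semaphorins, had 256 at 155 bp upstream, and *CaMKII*, a calcium-dependent kinase, had 141 at 274 bp upstream. *Asator*, a kinase of the tau tubulin kinase family, had 185 at 534 bp upstream. All of these had support from the strongest rows of all 3 replicates.

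Other genes of chromosome 4 had regions of 87.6 to 153. At *pho* (pleiohomeotic, a DNA-binding Polycomb recruiter) the strongest of 2 IDR regions had a signal value of 137, at 117 bp upstream. The 2 rows overlapped, with summits 1181745 and 1181951. *ey* (eyeless, the Pax6 factor of eye development) had 104 at 105 bp downstream of a TSS, and *myo* (myoglianin, a TGF-β family ligand) next to it had 3 IDR regions of 87.6 to 103.4. The IDR region nearest to *ci* (cubitus interruptus, the transcription factor of Hedgehog signalling) had 153 but lay 3510 bp upstream, in an intron of a noncoding antisense gene. That is outside the 1000 bp window, so *ci* was not counted as marked. Within that window *ci* had 3 weaker rows of at most 46.2, none in the IDR set. *dati*, a zinc finger factor, had 94.8 at 405 bp upstream.

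Among 51 chromosome 4 genes of a list of known genes that lay in the blocks, 21 had an IDR summit within 1000 bp of a TSS, beside 26 of all 80 genes of the chromosome (32.5%), and 22 had one there or in the gene body. The gene added by its body was *unc-13*, a synaptic vesicle priming factor, with 112. Besides those above, the genes were *RpS3A*, *Slip1*, *apolpp*, *Zyx*, *PIP4K*, *lgs*, *ND-49*, *Ephrin*, *Zip102B*, *Arl4*, *ATPsynbeta* and *Crk*, with 78.5 to 242. *apolpp* (the apolipophorin of insect blood) and *Zyx* (zyxin) shared 1 region of 141, and *Slip1* shared a region of 168 with *CG46466*. The genes with no IDR summit included *toy*, the paralog of *ey*, and *bt*, a giant muscle protein gene. Of the 51, 47 had some row of the pooled list within 1000 bp of a TSS, beside 69 of all 80 (86.2%).

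Pericentric IDR regions of 3L and 2L lay mostly at start sites. On 3L the strongest was at *RpL15*, a ribosomal protein gene, with a signal value of 132 and the summit 17 bp upstream of the TSS. It ranked 4927, 6880 and 4333 in replicates 1, 2 and 3. *CG33217* had 118, with ranks of 15686, 7551 and 3525, so it was far weaker in replicate 1. *vtd*, the Rad21 subunit of cohesin, had 84.7 at 61 bp upstream and *Dbp80*, an RNA helicase, had 89.9 at 80 bp upstream. An intronic region of *l(3)80Fg* had 126.

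On 2L the strongest region was that of *Nubpl*, a factor for assembly of respiratory complex I, with 111 and ranks of 7122, 7457 and 6131. *CG12567* had 97.9 at 40 bp downstream of its TSS. *lt* (light, a subunit of the vesicle tethering complex HOPS) also had 97.9, at 143 bp upstream, with ranks of 10552, 8902 and 5415. *RpL5* had 93.0 at 43 bp upstream. For *lt*, *RpL5* and *CG12567* on 2L, and for *vtd* and *Dbp80* on 3L, replicate 3 alone placed the region among its 8700 strongest rows.

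Of the 5 cytosolic ribosomal protein genes in the blocks, 4 had an IDR summit within 1000 bp of a TSS, beside 22.8% of all genes of the blocks and 23.9% in the rest. They were *RpS3A* on chromosome 4 with 242, *RpL15* with 132, *RpL10* with 115 and *RpL5* with 93.0. *RpL21* had rows of at most 60.4, not in the IDR set. This group was chosen after its values were seen.

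On X, an intron shared by *CG42346* and *fog* (folded gastrulation, a secreted signal for cell shape change) held the strongest pericentric region of all, with 324 and ranks of 2139, 1501 and 1353. A further region in the same pair of genes had 151. *CG17167* had 162 at 371 bp upstream, and *Cda4*, a chitin deacetylase gene, had 140 in an intron at 802 bp from a TSS. On 3R the strongest rows were at *CG12581* with 73.6, near *Dsk* (a neuropeptide gene) with 72.6 and at *CG41099* with 69.7. None was in the IDR set, the best ranking 9098 in the pooled list.

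Of 25 genes of a list of known pericentric genes that lay in the blocks, 6 had an IDR summit near a TSS, beside 18 of all 113 genes of these blocks (15.9%) and 23.9% of genes in the rest. There were 7 with one there or in the body. They were *lt*, *RpL5*, *RpL15*, *Dbp80*, *vtd* and *l(3)80Fg*, with *fog* added by its body. *nvd* (neverland) and *spok* (spookier), both enzymes of ecdysteroid synthesis, had no row of the pooled list near a TSS or in the body. The same was true of *Snap25*, a synaptic fusion protein gene. *AGO3*, an Argonaute of the piRNA pathway, had 2 rows in its body of at most 25.5, and *Myo81F*, a myosin gene, had 1 row of 20.7. *cta* (concertina, a G protein subunit), *Set1* (a histone H3 methyltransferase) and *su(f)* (an mRNA 3′ processing factor) had rows of at most 46.0, 44.2 and 44.4, none in the IDR set.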

How the data were processed

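ChIP-seq peak lists of 3 biological replicates of OdsH-GFP prepupae were analysed, together with the pooled list and the IDR set. The submitters' files hold 1 row per region on builds dm6 and dm3. The deposited signal value and -log10 q-value are those of the authors' peak caller, and the deposited summit offset gave each summit. The q-value is capped in 26.1% of pooled rows, so it was not used. For alignment and peak calling no tool or version is named in the labels or files used here. Depth per library is unknown. Replicate, pooled and IDR lists hold 30000, 30000 and 8700 rows, and the IDR set was the 8700 strongest pooled rows. Rows of 416 bp made up 98.6% of members and 86.8% of all pooled rows.

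Sequence came from the RefSeq copy of release 6, equal to dm6, and genes and transposable elements from Ensembl release 115. GC content and words were read over 50 bp to either side of each summit. Gene lists matched by symbol, 51 of 60 and 25 of 46 symbols lying in the blocks, 7 symbols not matching. Each statistic was computed in each replicate list as blocks minus, or over, the euchromatic rest, and tested by a two-sided exact permutation test over replicates (sign flips). Exact intervals on shares are Clopper-Pearson at 95%. These intervals and the limits from a count of 0 (3 counts) reflect counting error alone. Overlap means at least 1 bp. Functions were tested on simulated rows. Named were the genes within 5000 bp of the 20 strongest members, the 3 strongest members of each block, and list genes with an IDR summit. Members and lists were chosen with earlier results of these data known. The quotients over the share of bases and the GC differences to windows 500 bp away were added after seeing the data. Alternatives moved the limits by 0.3 Mb, changed windows, overlap, rows and denominators, and left out each replicate. dm3 lists gave counts only. Python 3.11.15, numpy 2.4.6, pandas 2.3.3, SciPy 1.17.1 and matplotlib 3.10.9 were used.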

Additional observations from a re-analysis of the deposited data

Results flagged for a closer look

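The dm3 lists, which entered no comparison, keep heterochromatin on separate scaffolds (2LHet, 3LHet, 3RHet and XHet had rows, YHet none). Rows on these scaffolds were above the limit of 3 that a count of 0 allows in every list. The pooled list had 42, the IDR set 7, and replicates 1, 2 and 3 had 46, 37 and 147. Replicate 3 was above the other replicates there too, as it was in the pericentric blocks on dm6. The unplaced scaffold U of dm3 is not in these counts. It had 4 rows of the pooled list, 1 of the IDR set, and 4, 3 and 17 of replicates 1, 2 and 3.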

How the results depend on the processing

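Of 150 alternative values, 142 kept the direction of the main value and 8 reversed it. Per protein-coding gene in place of per Mb, density in the blocks was 1.28 times that in the rest (2.88 and 2.25 rows per gene), while the strongest rows alone gave 0.441, an alternative chosen after seeing the data. GC at summits was 1.27 points higher in the blocks for the strongest rows, TAATTA 0.42 points more frequent in a window of 100 bp to either side, and genes with a summit 1.11 points more frequent on chromosome 4 alone and 20.3 points with all rows. Alternatives that joined 1 block type with a left-out replicate were also chosen after seeing the data. There TAATTA reversed in the pericentric blocks without replicate 1 (0.18 points), and genes with a summit on chromosome 4 without replicate 1 (1.62 points) or replicate 2 (4.18 points). Leaving out each replicate in turn gave density ratios of 0.153 to 0.175, strong-row differences of -20.9 to -18.3, support differences of -11.1 to -9.85, TSS differences of 4.57 to 10 and gene differences of -12.6 to -3.90 points. Restricted to the IDR set, replicate support differed by -15.5 points over all blocks, -16.0 in the pericentric blocks and -15.2 on chromosome 4. With masked sequence in place of annotated elements the repeat difference was 5.23 points. Shares on chromosome 4 in dm3 lists were 0.911% of rows, against 0.926% on dm6. Causes of these reversals were not tested. Blocks and rest were paired within each replicate in the test over replicates. Pairing between groups was not possible, because there is 1 group. Depth per library is unknown, and the 60 IDR members limit the precision of each share.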
